A study of Homo sapiens with 9 samples.

Results

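The BCL2 family decides whether a cell opens its mitochondria to apoptosis, and 10 of its genes are described here across 9 libraries of HaCaT cells. The genes were taken from the 20263 rows of the deposited count table by symbol, through their Ensembl identifiers. They are the pro-survival genes BCL2, BCL2L1 and MCL1, the pore-forming effectors BAX and BAK1, and the BH3-only genes BBC3, PMAIP1, BCL2L11, BID and BAD. All 10 were found and all 10 passed the filter on low counts. HaCaT is an immortalised line of human epidermal keratinocytes. Each of 3 groups held 3 libraries: control cells (labelled Blank, treatment WT), cells given melanosomes, and cells given both melanosomes and glabridin, an isoflavan of licorice root. Both of the latter groups were thus given melanosomes, though how much the cells held is not given, and no group received glabridin alone. The labels give no dose, no exposure time and no source of the melanosomes, and nothing in them says that replicates came from separate cultures. P-values therefore speak only to the variation among these 9 libraries, part of which could be technical.

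In the mitochondrial pathway of apoptosis, BAX and BAK1 proteins assemble in the outer mitochondrial membrane and release cytochrome c, which starts caspase activation. BCL2, BCL-XL (from BCL2L1) and MCL1 hold them in check. The BH3-only proteins sense stress and either occupy the pro-survival proteins or activate the effectors directly. In epidermis BCL-XL and MCL1 support keratinocyte survival, whereas BCL2 is known as a survival factor of melanocytes. Much of the family's control lies in protein binding, cleavage, phosphorylation and splicing, none of which gene-level counts show.

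Promoter sequence is shown for BBC3, PMAIP1 and BAX, which rose most of the 7 pro-apoptotic genes among the 10 between control and glabridin libraries. RefSeq promoter windows on GRCh38.p14 were matched for 9 of the 10 genes, as 15 windows; MCL1 was the other. Each window was searched over the 250 bases before the transcript start, on both strands, with overlapping matches counted as a single site. The motifs were TGATGNAA, the composite element of C/EBP and ATF factors; TGACGT, the core of the cyclic AMP response element; and TCANGTG, the E-box form read by MITF and related factors. They are present in 3.14%, 7.10% and 10.7% of 35116 such windows of all genes. The printed stretches stop before the first base that GENCODE 29 assigns to the gene, and capitals mark the motif matches. BBC3 is shown for chr19:47232767-47232917 (minus strand), PMAIP1 for chr18:59899746-59899947 (plus strand) and BAX for chr19:48954625-48954814 (plus strand).
BBC3: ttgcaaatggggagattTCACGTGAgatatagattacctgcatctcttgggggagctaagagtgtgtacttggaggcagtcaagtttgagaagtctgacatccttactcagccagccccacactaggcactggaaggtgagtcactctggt
PMAIP1: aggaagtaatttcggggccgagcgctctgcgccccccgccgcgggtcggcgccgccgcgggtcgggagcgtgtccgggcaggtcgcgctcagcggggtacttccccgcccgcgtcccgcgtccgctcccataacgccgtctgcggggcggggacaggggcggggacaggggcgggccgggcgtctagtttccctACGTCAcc
BAX: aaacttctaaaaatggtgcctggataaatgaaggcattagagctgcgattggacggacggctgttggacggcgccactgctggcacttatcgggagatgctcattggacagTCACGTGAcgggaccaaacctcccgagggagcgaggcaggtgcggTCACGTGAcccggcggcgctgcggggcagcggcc
The BBC3 window held 1 E-box match, starting 233 bases before the start. The PMAIP1 window held 1 cyclic AMP response element core, 56 bases before the start. The BAX window held 4 E-box matches, at 139, 94, 45 and 15 bases before the start, of which the printed stretch contains the first 2. Among the other members, BAD had 1 cyclic AMP response element core, present in both of its windows. No member's window held TGATGNAA. These are matches of letters and say nothing of binding.

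Deposited counts totalled 39653425 to 46690787 per library. Fold changes come from edgeR's quasi-likelihood test on counts scaled by TMM factors, adjusted by the Benjamini-Hochberg method over 13912 genes, and a gene is called when its adjusted p is under 0.05. Levels compared between genes are TPM, a transcript abundance corrected for gene length, as the authors deposited them. Tests between groups rest on counts, and CPM are counts relative to TMM-scaled library sizes. The 3 comparisons share groups pairwise, so their values are set side by side and not as independent results. Melanocyte markers moved with melanosome exposure. Of 22 markers 22 rose against control in each melanosome-laden group, and their CPM summed to 226.4 to 235.3 in control libraries, 3632 to 3751 with melanosomes and 2261 to 4033 with glabridin. TYR, PAX3, KIT, TRPM1, OCA2, SLC24A5 and S100B were at 0 counts in every control library and none of the 22 was at 0 in the other groups. Keratinocyte markers were present throughout, with none of 14 at 0 and a summed level of 21310 to 21690, 15900 to 17110 and 11800 to 14970 CPM in the same order of groups. Summed fibroblast markers (8 genes) were at 42.28 to 45.53 CPM in control and 12.86 to 20.29 CPM in the melanosome-laden groups, endothelial markers (5) at 32.44 to 32.74 and 1.734 to 7.553 CPM, and leukocyte markers (5) at 52.09 to 55.01 and 64.67 to 114.7 CPM, with PTPRC at 0 throughout. Each of these sums was mostly a single gene in control: DCN at 32.0 CPM, CDH5 at 31.5 CPM and CD68 at 53.7 CPM. LUM, also in the fibroblast list, went the other way from DCN, from 0.339 to 2.99 CPM with melanosomes. The part that RNA of pigment cells plays in the values below was not tested, and in bulk libraries fewer cells of a type and less RNA per cell cannot be told apart.

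In control cells BCL2L1 and MCL1 dominated the family, and BCL2 was close to absent. BCL2L1 stood at 324.1 ± 3.96 TPM (SD, n = 3) and MCL1 at 291.8 ± 5.25 TPM, followed by BAK1 at 119.1 ± 2.54, BAD at 77.1 ± 5.89, BAX at 56.9 ± 2.20, BID at 36.0 ± 2.05, BBC3 at 24.7 ± 1.68, PMAIP1 at 20.9 ± 0.355, BCL2L11 at 20.4 ± 1.21 and BCL2 at 0.0900 ± 0.0173 TPM. Only PMAIP1 and BCL2L11 overlapped among neighbours in this order. With melanosomes, MCL1 and BCL2L1 overlapped at the top, and BAX overlapped with BAD. With glabridin BBC3 moved from the seventh place in control to the third, above BAK1 in mean TPM, at 190.1 ± 10.1 against 151.3 ± 15.8 TPM, with no overlap of their libraries. In the glabridin group BCL2L1 overlapped with MCL1, BAX with BAD, and BAD with PMAIP1.

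BBC3 and PMAIP1 took up a larger part of the family's transcripts with glabridin, while the other 3 BH3-only genes took up a smaller one. The 3 pro-survival genes summed to 616.0 ± 6.88 TPM in control, 604.8 ± 31.6 TPM in melanosome and 637.5 ± 25.3 TPM in glabridin libraries. The 5 BH3-only genes summed to 179.0 ± 6.52, 224.9 ± 3.68 and 386.9 ± 5.28 TPM in these groups. As a share of all 10 genes, BH3-only transcripts made up 18.4% ± 0.655 in control, 21.2% ± 0.735 with melanosomes and 30.6% ± 1.06 with glabridin, and the libraries of the 3 groups did not overlap. That gain was carried by 2 of the 5 genes: BBC3 went from 2.55% ± 0.153 to 5.69% ± 0.371 and 15.0% ± 0.883 of the sum, and PMAIP1 from 2.15% ± 0.0594 to 2.30% ± 0.351 and 5.09% ± 1.46. Between control and glabridin libraries the mean shares of the others went down, from 2.10% to 1.31% for BCL2L11, from 3.71% to 2.41% for BID and from 7.94% to 6.75% for BAD. The level of BAD did not itself fall, at a mean of 77.1 TPM in control and 85.5 TPM with glabridin. Its share went down because the sum of all 10 genes grew from 971.1 to 1266 TPM. The effectors BAX and BAK1 together held 18.1% ± 0.381, 21.99% ± 0.913 and 19.1% ± 1.58. These sums are a description over chosen genes and carry no test.

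**Figure D1:**
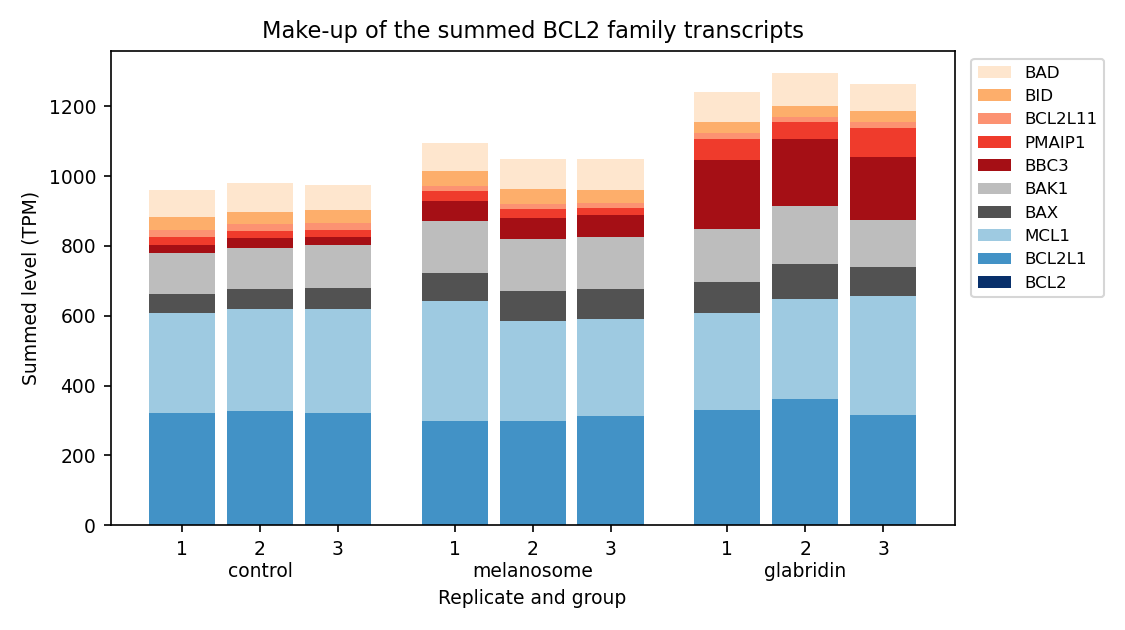
Stacked bars give the TPM of the 10 genes in each of the 9 libraries, with pro-survival genes in blues, effectors in greys and BH3-only genes in reds and oranges. The blue part stays between 583.93 and 655.62 TPM in every library. The parts of BBC3 and PMAIP1 grow from means of 24.7 and 20.9 TPM in control to 190.1 and 64.3 TPM in glabridin libraries, while BID and BCL2L11 narrow.

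**Figure D2:**
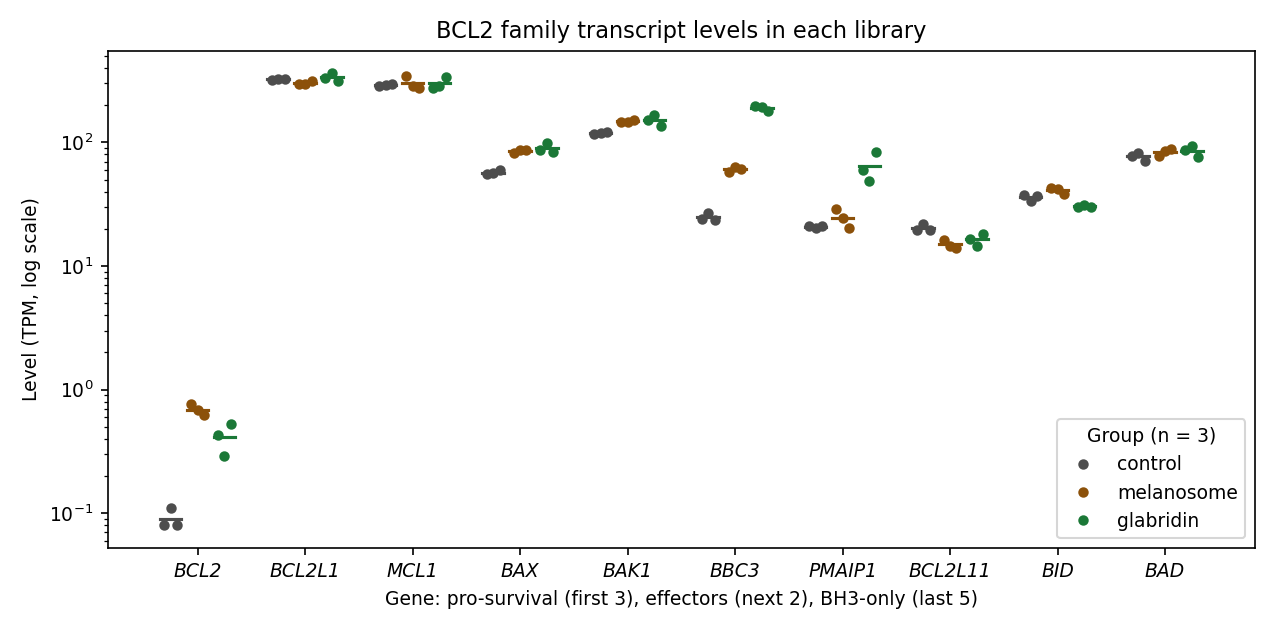
Each point is the TPM of a gene in 1 library on a log axis, in 3 colours for control, melanosome and glabridin, and each line is the group mean of 3 libraries. BCL2 lies below 1 TPM in every library, and BBC3 rises in both steps.

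Counts of called members were set against the share of all genes called. Between melanosome and control libraries, 5 of the 10 genes were called, 3 higher and 2 lower, where 62.5% of all genes tested were called (29.5% higher and 33.0% lower). Between glabridin and melanosome libraries, 7 were called, 5 higher and 2 lower, against 43.9% of all genes (23.7% higher and 20.2% lower). Between glabridin and control libraries 7 were called, 5 higher and 2 lower, against 70.3% of all genes (37.6% higher and 32.7% lower). The median log2 change of the 10 genes was 0.03, 0.24 and 0.26 in the 3 comparisons, beside -0.06, 0.01 and 0.03 over all genes. Groups did not overlap in CPM for 6, 7 and 7 members, against 76.1%, 50.2% and 73.2% of all genes. At 5, 7 and 7 of 10, set beside these backgrounds, the counts are given as no result about the family, and the members are described singly. Of the calls, 3 of 5, 2 of 7 and 4 of 7 held in every one of 15 refits with another scaling, test, filter, set of libraries or a library left out. These were BCL2, BBC3 and BCL2L11 between melanosome and control, BBC3 and PMAIP1 between glabridin and melanosome, and BCL2, BAX, BBC3 and PMAIP1 between glabridin and control.

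**Figure D3:**
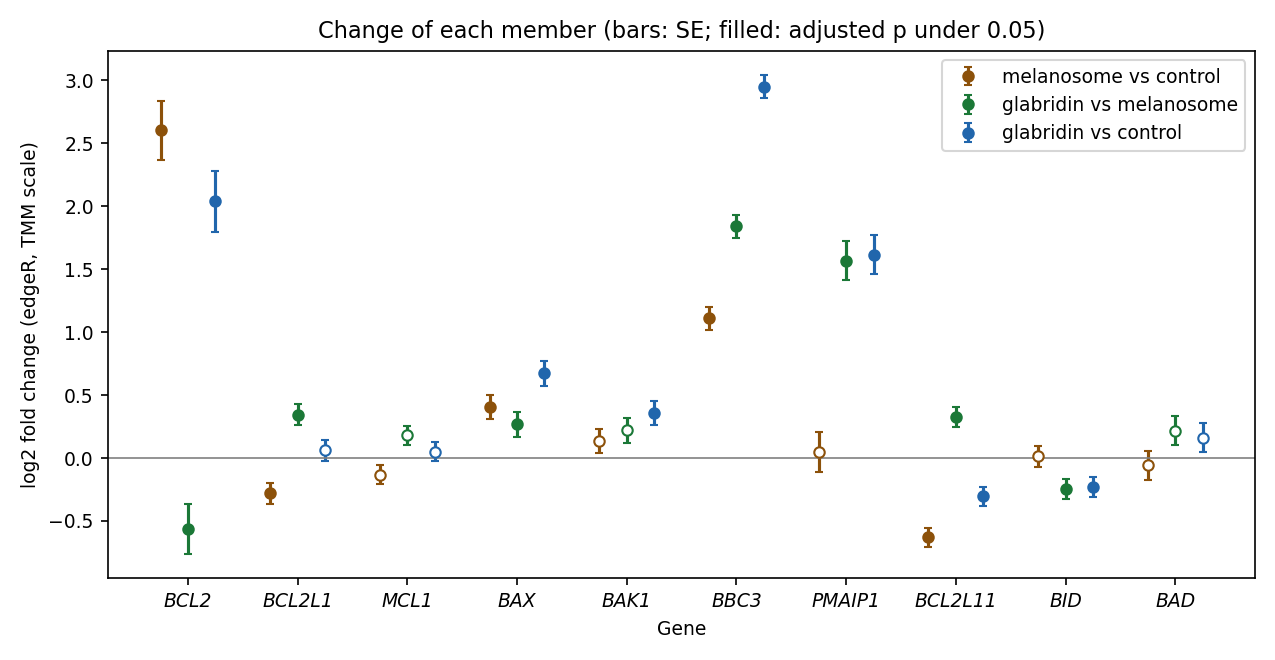
Points give the log2 fold change of each gene on the TMM scale in 3 comparisons, bars the standard error, and filled points an adjusted p under 0.05. BBC3 is filled and above 0 in all 3 comparisons. PMAIP1 is open at 0.05 between melanosome and control and filled at 1.57 and 1.62 in the others.

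Among BH3-only genes, BBC3 and PMAIP1 rose most with glabridin, and they differed in the melanosome step. BBC3 (chromosome 19, 47220822 to 47232766, minus strand, GRCh38) encodes PUMA, which binds all pro-survival members and is a target of FOXO3 and stress factors. It stood at 23.90, 26.68 and 23.67 TPM in control libraries 1 to 3, at 57.67, 62.70 and 61.04 TPM in melanosome libraries and at 197.46, 194.11 and 178.62 TPM in glabridin libraries. All 3 groups were apart. BBC3 was 2.16-fold higher with melanosomes than in control (log2 change 1.11 ± 0.09 SE, edgeR adjusted p = 2.42e-06) and 3.58-fold higher again with glabridin (1.84 ± 0.09 SE, edgeR adjusted p = 2.18e-07). Glabridin libraries exceeded control 7.72-fold. Over all alternatives and libraries left out, the melanosome step ranged from 1.07 to 1.28 and the glabridin step from 1.64 to 1.92.

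PMAIP1 (chromosome 18, 59899948 to 59904306, plus strand) encodes NOXA, which binds mainly MCL1 and marks it for degradation. Its level was 21.19, 20.49 and 20.94 TPM in control, 28.72, 24.52 and 20.23 TPM in melanosome and 60.30, 48.59 and 83.96 TPM in glabridin libraries. Control and melanosome libraries overlapped, and every glabridin library lay above both. The melanosome step was 0.05 ± 0.16 SE (edgeR adjusted p = 0.807), and PMAIP1 rose 2.97-fold with glabridin (1.57 ± 0.16 SE, edgeR adjusted p = 2.50e-05). Glabridin replicates spread widely: replicate 3 had the highest PMAIP1 and the lowest BBC3 of its group. The order of replicates thus differed between these genes although both rose. The TPM ratio of MCL1 to PMAIP1 was 13.55 to 14.21 in control, 11.66 to 13.69 with melanosomes and 4.059 to 5.887 with glabridin. The ratio of BCL2L1 to BBC3 went from 12.31 to 13.65 in control to 4.743 to 5.143 and then 1.676 to 1.865.

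The other BH3-only genes moved by less than 1.6-fold and in mixed directions. BCL2L11 (chromosome 2, 111119378 to 111168447, plus strand) encodes BIM, a strong activator of the effectors. It was at 19.66, 21.79 and 19.73 TPM in control, 16.33, 14.41 and 14.12 TPM in melanosome and 16.69, 14.49 and 18.30 TPM in glabridin libraries. All control libraries were above all others, and the melanosome and glabridin libraries overlapped on this scale, though not in CPM. BCL2L11 was 1.55-fold lower with melanosomes (-0.63 ± 0.08 SE, edgeR adjusted p = 5.28e-05). Between glabridin and melanosome it was higher by 0.32 ± 0.08 SE (edgeR adjusted p = 0.00632), a call that was lost with library totals alone (0.15, edgeR adjusted p = 0.189), on log2(TPM + 1) (0.13, limma adjusted p = 0.303) and without glabridin replicate 1 (0.22, edgeR adjusted p = 0.0776). The same call was lost with edgeR's glmTreat test against a fold of 1.2 (adjusted p = 0.221). BCL2L11 remained below control with glabridin (-0.30 ± 0.08 SE, edgeR adjusted p = 0.00451).

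BID (chromosome 22, 17734138 to 17774770, minus strand) links death receptors to mitochondria once caspase-8 has cleaved its protein. It was at 37.32, 33.60 and 36.96 TPM in control, 42.85, 42.21 and 38.39 TPM in melanosome and 30.12, 31.13 and 30.26 TPM in glabridin libraries. The glabridin libraries were the lowest of the 9. The melanosome step was 0.01 ± 0.08 SE on the TMM scale (edgeR adjusted p = 0.894). In TPM the melanosome and control libraries did not overlap, and the step passed on log2(TPM + 1) (0.19, limma adjusted p = 0.0297). BID fell with glabridin against melanosomes by 0.24 on the log2 scale (SE 0.08, edgeR adjusted p = 0.0314). It was also below control with glabridin (-0.23 ± 0.08 SE, edgeR adjusted p = 0.0252), a call that held in 9 of 15 refits. The call against melanosomes was lost, among fits with a library left out, without melanosome replicate 1 or 2 or glabridin replicate 3, with edgeR adjusted p of 0.0792, 0.118 and 0.0582.

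BAD (chromosome 11, 64269830 to 64284704, minus strand), whose protein is kept inactive by phosphorylation under growth factor signalling, passed in no comparison of the main fit. It was at 77.69, 82.62 and 70.90 TPM in control, 77.52, 85.33 and 88.76 TPM in melanosome and 86.98, 92.82 and 76.72 TPM in glabridin libraries. The 3 groups overlapped. The log2 changes were -0.06 ± 0.12 SE with melanosomes (edgeR adjusted p = 0.686; above 0 with RLE, upper-quartile or no scaling factors) and 0.22 ± 0.11 SE with glabridin (edgeR adjusted p = 0.151). Without glabridin replicate 3 the latter was 0.32 (edgeR adjusted p = 0.0127), and BAD was above control by 0.27 (edgeR adjusted p = 0.0213). GPR137 overlaps BAD on the other strand, and since the use of strand in counting is not given, reads in the overlap cannot be told apart.

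Of the effectors, BAX was higher in both melanosome-laden groups than in control and BAK1 moved less. BAX (chromosome 19, 48954815 to 48961798, plus strand), which moves from the cytosol to mitochondria on activation, was at 55.13, 56.32 and 59.39 TPM in control, 81.87, 87.60 and 86.64 TPM in melanosome and 87.58, 98.48 and 84.24 TPM in glabridin libraries. Every melanosome-laden library was above every control library, and the melanosome and glabridin libraries overlapped in TPM. BAX was 1.32-fold higher with melanosomes (0.41 ± 0.10 SE, edgeR adjusted p = 0.00456) and 1.59-fold higher in glabridin than in control libraries (0.67 ± 0.10 SE, edgeR adjusted p = 1.17e-04). Between glabridin and melanosome libraries it was called higher (0.27 ± 0.10 SE, edgeR adjusted p = 0.0471), but that call held in only 1 of 15 refits, the fit without glabridin replicate 3. Other adjusted p ran up to 0.477.

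BAK1 (chromosome 6, 33572547 to 33580293, minus strand), the effector that resides in the mitochondrial membrane, was at 116.40, 119.61 and 121.41 TPM in control, 147.17, 147.04 and 150.93 TPM in melanosome and 153.12, 166.11 and 134.73 TPM in glabridin libraries. Melanosome and control libraries did not overlap on either scale. The melanosome step on the TMM scale was 0.14 ± 0.10 SE (edgeR adjusted p = 0.238), whereas it passed with library totals alone (0.30, edgeR adjusted p = 0.0111), on log2(TPM + 1) (0.31, limma adjusted p = 0.00299) and in a fit of those groups alone (0.22, edgeR adjusted p = 1.90e-04). Glabridin libraries were 1.28-fold above control (0.36 ± 0.10 SE, edgeR adjusted p = 0.00693). The BAK1 to BAX ratio in TPM was 2.044 to 2.124 in control and 1.599 to 1.798 in the other groups. BAK1 has pseudogenes named BAK1P1 and BAK1P2 and overlaps GGNBP1 on the other strand, so its counts are less certain than those of BAX. BCL2L1 (with ABALON and AL117381.1) and BCL2L11 (with MIR4435-2HG) also overlap genes on the other strand. MCL1 overlaps ADAMTSL4-AS1, and BCL2 overlaps AC022726.1 on its own strand and AC022726.2 on the other. BBC3 overlaps MIR3191 on its own strand and MIR3190 on the other, and BID overlaps MIR3198-1 on its own strand.

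The abundant pro-survival genes moved little. BCL2L1 (chromosome 20, 31664452 to 31723989, minus strand), which yields the long survival form BCL-XL and a short form that promotes death, was at 320.77, 328.46 and 322.98 TPM in control, 296.62, 297.37 and 311.75 TPM in melanosome and 330.96, 362.06 and 314.27 TPM in glabridin libraries. The melanosome libraries were the lowest of the 9, and glabridin and control libraries overlapped. BCL2L1 was 1.22-fold lower with melanosomes (-0.28 ± 0.08 SE, edgeR adjusted p = 0.0127), 1.27-fold higher with glabridin than with melanosomes alone (0.34 ± 0.08 SE, edgeR adjusted p = 0.00676), and at 0.06 ± 0.08 SE between glabridin and control (edgeR adjusted p = 0.523). Both calls turned on the scale. With RLE, upper-quartile or no scaling factors the melanosome step was -0.21, -0.21 and -0.12, with edgeR adjusted p of 0.0631, 0.0603 and 0.169. The melanosome call was also lost with DESeq2 (DESeq2 adjusted p = 0.0709) and on log2(TPM + 1) (limma adjusted p = 0.123). The glabridin step was lost with upper-quartile or no factors (edgeR adjusted p = 0.0553 and 0.0755) and without glabridin replicate 1 (edgeR adjusted p = 0.0788). With edgeR's glmTreat test against a fold of 1.2 neither call held (adjusted p = 0.318 for the melanosome and 0.18 for the glabridin step).

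MCL1 (chromosome 1, 150574551 to 150579738, minus strand), a short-lived survival protein, was at 287.21, 290.68 and 297.53 TPM in control, 343.82, 285.88 and 277.00 TPM in melanosome and 277.20, 286.07 and 340.82 TPM in glabridin libraries. The groups overlapped, and 1 library in each melanosome-laden group, melanosome replicate 1 and glabridin replicate 3, stood above its neighbours. The log2 changes were -0.13 ± 0.08 SE with melanosomes (edgeR adjusted p = 0.147), 0.18 ± 0.08 SE with glabridin (edgeR adjusted p = 0.0746) and 0.05 ± 0.08 SE between glabridin and control (edgeR adjusted p = 0.580). Without melanosome replicate 1 the first was -0.21 (edgeR adjusted p = 0.0307) and the second 0.26 (edgeR adjusted p = 0.0196). The melanosome step was above 0 with library totals alone (0.04).

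BCL2 (chromosome 18, 63123346 to 63320128, minus strand), the founding member and a survival gene of pigment cells under MITF, was the lowest of the 10 in every library and had the largest melanosome step. It had 18, 24 and 16 counts in control, 155, 118 and 124 in melanosome and 86, 55 and 103 in glabridin libraries, or 0.08, 0.11 and 0.08, then 0.77, 0.68 and 0.62, then 0.43, 0.29 and 0.53 TPM. The groups did not overlap. BCL2 was 6.07-fold higher with melanosomes (2.60 ± 0.24 SE, edgeR adjusted p = 5.46e-06), and 4.11-fold higher in glabridin than in control libraries (2.04 ± 0.24 SE, edgeR adjusted p = 2.52e-05). On the log2(TPM + 1) scale, which shrinks changes at such low levels, these steps were 0.63 and 0.37. Glabridin libraries were lower than melanosome libraries by -0.56 ± 0.20 SE (edgeR adjusted p = 0.0401), and leaving out any single melanosome library or glabridin replicate 2 raised that adjusted p to between 0.0597 and 0.128. At 0.69 ± 0.0755 TPM in its highest group, BCL2 made up 0.0648% of the summed family transcripts.

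The rise of BCL2 stood beside that of the melanocyte markers and of BCL2A1, a pro-survival relative that MITF also controls in pigment cells. BCL2A1 had 0, 0 and 2 counts in control, 108, 86 and 112 in melanosome and 73, 110 and 54 in glabridin libraries. From 2 control counts, its melanosome to control ratio was 136.3 (exact 95% counting interval 37.41 to 1130) and its glabridin to control ratio 117.0 (32.02 to 971.4). Within the glabridin group the marker sum was 2653, 4033 and 2261 CPM in replicates 1 to 3. BCL2A1 was highest in replicate 2 as well, at 1.64, 2.76 and 1.18 CPM, whereas BCL2 was lowest there, at 1.93, 1.38 and 2.26 CPM. The level of MITF itself, in CPM, was 4.80 ± 0.214 without melanosomes, 100.2 ± 9.95 with them and 53.1 ± 2.96 with glabridin added. BCL2A1 did not pass between glabridin and melanosome libraries (-0.20, edgeR adjusted p = 0.636). The part of pigment cell RNA in BCL2 and BCL2A1 was not tested.

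**Figure D4:**
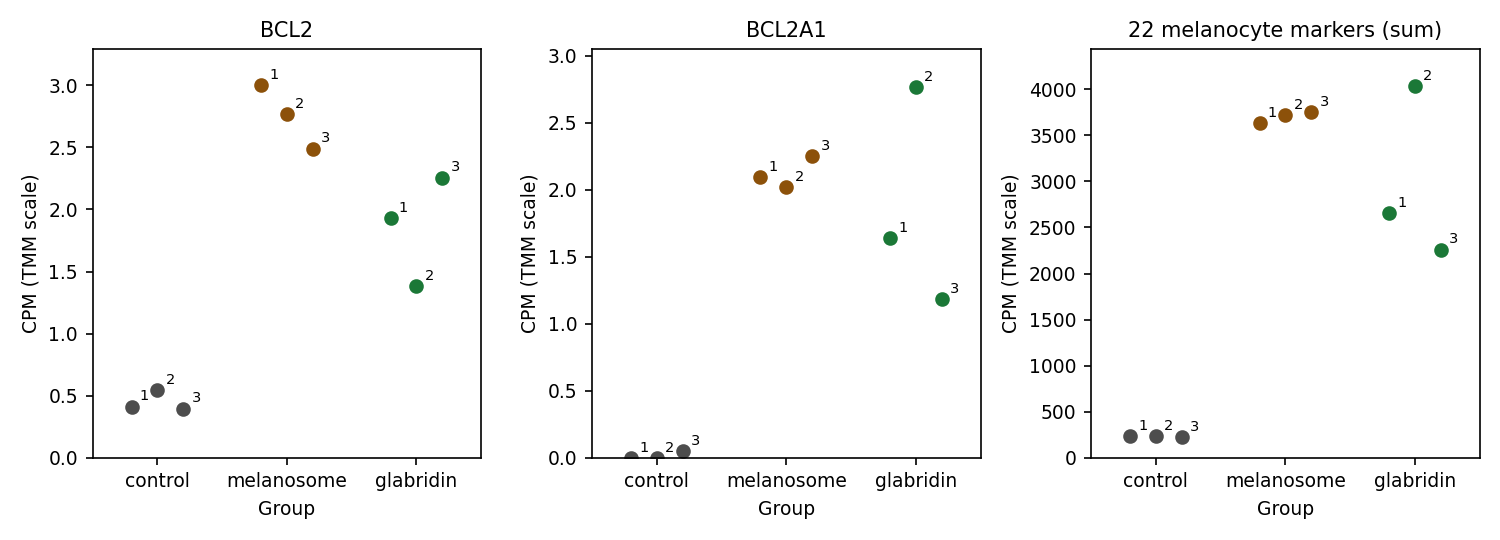
Panels give BCL2, BCL2A1 and the sum of 22 melanocyte markers in CPM on the TMM scale, with a point for each of the 9 libraries and its replicate number beside it. All 3 measures are low in control, and in the glabridin group replicate 2 is the highest in BCL2A1 and the marker sum and the lowest in BCL2.

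Other relatives of the family were called in both directions. Of 13 genes, 11 passed the filter (BCL2L10 and BCL2L15 did not), of which 4 rose and 5 fell with melanosomes, 4 rose and 4 fell with glabridin against melanosomes, and 5 rose and 5 fell with glabridin against control. The shares of all genes called were 62.5%, 43.9% and 70.3%. Over the alternatives the number that rose in the glabridin step ran from 0 to 4 and the number that fell from 2 to 6. Their median log2 changes were -0.21, -0.20 and -0.12, beside -0.06, 0.01 and 0.03 for all genes. BNIP3, a mitophagy receptor with a BH3-like stretch and a hypoxia target, went from 5.46 ± 0.196 CPM in control to 38.8 CPM with melanosomes (2.83 log2, edgeR adjusted p = 2.25e-07) and 16.9 CPM with glabridin (-1.20 against melanosomes, edgeR adjusted p = 1.53e-04). Many pseudogenes carry the BNIP3 name, which makes its counts less certain. BNIP3L, its close relative, fell with glabridin by 0.69 on the log2 scale (edgeR adjusted p = 2.57e-04). BIK, a BH3-only gene of the endoplasmic reticulum, rose in both steps, by 0.58 and 0.43 (edgeR adjusted p = 7.59e-04 and 0.00653). BCL2L12, which IRF3 overlaps on the other strand, rose with melanosomes by 1.12 (edgeR adjusted p = 2.68e-06) and was at -0.06 in the glabridin step (edgeR adjusted p = 0.642). HRK and BMF, BH3-only genes of cytokine withdrawal and of detachment, fell with melanosomes by 0.63 and 0.42 (edgeR adjusted p = 7.20e-05 and 0.00143). In the glabridin step HRK was higher by 0.22 (edgeR adjusted p = 0.0474). BMF fell further with glabridin, by 0.25 (edgeR adjusted p = 0.0360), and BOK, a BAX-like effector gene, by 0.34 (edgeR adjusted p = 0.00643).

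Caspase, apoptosome and mitochondrial genes act with or after the effectors, except for some, such as death receptor caspases, which act before them. Of 17 such genes, set beside 62.5% of all genes called in the melanosome step and 43.9% in the glabridin step, 3 rose and 8 fell with melanosomes (2 to 6 and 4 to 7 over the alternatives) and 4 rose and 6 fell with glabridin (1 to 6 and 2 to 8). Their median log2 changes were -0.19 and -0.02. CASP10, a death receptor caspase, fell with melanosomes by 0.82 (edgeR adjusted p = 3.34e-05). With glabridin CASP6 fell by 1.02 (edgeR adjusted p = 6.72e-05) and CASP10 by 0.71 (edgeR adjusted p = 2.09e-04), while VDAC2, the membrane channel that retains BAK1 protein, rose by 0.53 (edgeR adjusted p = 6.69e-05) and CASP2 by 0.26 (edgeR adjusted p = 0.00478). Of 6 inhibitors of apoptosis, against the same 62.5% and 43.9% of all genes, 1 rose and 3 fell with melanosomes, and 1 rose with glabridin against melanosomes (BIRC2, 0.55, edgeR adjusted p = 0.0450). BIRC5, which encodes survivin and is also a mitotic gene, rose by 2.14 with melanosomes (edgeR adjusted p = 8.57e-09) and differed by -0.0007 in the glabridin step (edgeR adjusted p = 0.996). BIRC6 fell with melanosomes by 1.02 (edgeR adjusted p = 6.77e-05). In the glabridin step 0 to 3 inhibitors rose and 0 to 3 fell over the alternatives, so no direction is given for that list.

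In the receptor branch, the death receptor genes TNFRSF10B and TNFRSF10A were higher with glabridin and their ligand gene was lower. Of 8 genes, beside 62.5% and 43.9% of all genes called, 2 rose and 3 fell with melanosomes (1 to 4 and 2 to 3 over the alternatives) and 2 rose and 4 fell with glabridin (1 to 3 and 2 to 4). TNFRSF10B, which encodes the TRAIL receptor DR5, rose by 0.56 with melanosomes (edgeR adjusted p = 1.82e-04) and by 0.42 with glabridin (edgeR adjusted p = 0.00196). TNFRSF10A, which encodes DR4, rose with glabridin by 0.61 (edgeR adjusted p = 0.00182). TNFSF10, the TRAIL gene itself, was at 775.8 CPM in control, 205.1 CPM with melanosomes and 64.6 CPM with glabridin, and fell in both steps (-1.92 and -1.67, edgeR adjusted p = 2.48e-07 and 2.05e-06). FADD, the adaptor of death receptors, rose with melanosomes by 0.31 (edgeR adjusted p = 0.0111) and fell with glabridin by 0.81 (edgeR adjusted p = 4.63e-05).

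Factors known to act on BCL2 family promoters formed a list of 12 regulators. Where 62.5% and 43.9% of all genes were called, 5 of them rose and 6 fell with melanosomes (5 and 2 to 5 over the alternatives) and 5 rose and 4 fell with glabridin (5 and 4 to 5). DDIT3 (CHOP), a stress factor of the endoplasmic reticulum, was at 11.1 ± 0.124, 21.5 ± 0.443 and 97.1 ± 5.79 CPM in the 3 groups, rising in both steps (0.96 and 2.17, edgeR adjusted p = 1.07e-06 and 1.37e-08). ATF4 was at 360.8, 331.1 and 1341 CPM, with a log2 change of 2.02 in the glabridin step (edgeR adjusted p = 7.03e-09) and -0.12 in the melanosome step (edgeR adjusted p = 0.0572). ATF3, like DDIT3, rose in both steps, by 0.61 with melanosomes (edgeR adjusted p = 5.10e-05) and by 2.98 with glabridin (edgeR adjusted p = 6.81e-09). TP73 fell with glabridin by 1.63 (edgeR adjusted p = 7.45e-06). MITF fell in the same step by 0.92 (edgeR adjusted p = 1.23e-05). Whether any of these factors acts on a member was not tested.

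The genes nearest in pattern were sought for the 3 members with the widest span between group means, by the root mean square difference of centred log2 CPM over the 9 libraries, among about 11145 genes with a mean log2 CPM of at least 1. Nearest to BBC3 (span 2.94) were PLK3, PYCR1 and IL1B, at 0.09, 0.15 and 0.16. PLK3, a stress-responsive kinase gene, was at 8.38, 16.9 and 63.9 CPM in the 3 groups, and PYCR1, a proline synthesis gene, at 32.2, 61.2 and 216.8 CPM. Nearest to PMAIP1 (span 1.59) were GFPT1, the first enzyme of the hexosamine pathway, at 0.09, with 78.0, 80.7 and 228.1 CPM, then ABHD3 and LARP1B at 0.13 and 0.14. Nearest to BCL2 (span 2.51) were IFI44L, an interferon-induced gene, at 0.16, with 1.38, 9.63 and 5.89 CPM, then FAM222A and BMP8B, both at 0.19.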

How the data were processed

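Messenger RNA was selected by poly(A), made into dUTP strand-marked libraries and sequenced as read pairs, per the labels' protocols. Per the file headers, the authors deposited raw counts and TPM for each gene and library. A second deposited TPM table held the same values. The submitters' processing notes name hg38. Which aligner, counter, strand setting and annotation were used is not given in the sources used here. Symbols were found for 20148 of 20263 identifiers. Positions are from GENCODE 29 on GRCh38 and promoters from RefSeq on GRCh38.p14. Between 69.9% and 72.2% of counts from 1 to 49 were even, against 48.7% to 51.1% of counts over 500. If read pairs entered as 2 counts, which is not stated, the printed intervals are too narrow. Intervals cover counting error only.

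The test was edgeR 4.0.16 under R 4.3.3 (TMM, filterByExpr, quasi-likelihood test, all 9 libraries in a single fit without a replicate block). Standard errors were derived from the F statistic. Alternatives used DESeq2 1.42.0, limma 3.58.1 on log2(TPM + 1), glmTreat against a fold of 1.2, other scaling factors, no filter, only the compared groups, a replicate block, and each library left out. On simulated counts with 200 changed genes, 82.1% of 1.5-fold and 100.0% of 2-fold changes were recovered for glabridin vs melanosome among 13747 genes, with 13 of 201 calls among unchanged genes. For glabridin vs control 95.5% of 2-fold changes were recovered. The simulation gave every gene and library the same dispersion, the median of the data. Its rates therefore need not hold for the glabridin libraries, which spread more. The 200 changed genes had random directions, whereas 43.9% to 70.3% of genes were called in the data. The simulation therefore cannot show how the choice of scaling affects small changes. All pairs of replicates differed by more than sampling noise (chi-square per gene 3.189 to 104.5), the most in the glabridin group. The members and gene lists were chosen with earlier results of these data known. All members are named. Of the other family genes any may be named, and of each further list and comparison up to 2 called genes with the smallest p in each direction. The DDIT3, ATF4, ATF3 and BIRC5 values outside that rule were chosen after they were seen. Some genes and a motif are not reported here, though the genes stay in the counts.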

Additional observations from a re-analysis of the deposited data

How the results depend on the processing

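Without scaling factors the median log2 change of all genes moved by 0.17 in the melanosome step and by -0.18 in the glabridin step (-0.11 with upper-quartile factors), so small changes hold only relative to the TMM scale. Of called genes 47.2% were higher in the melanosome step and 54.0% in the glabridin step; without scaling factors 5438 were higher and 2805 lower (66.0% higher), and 1872 higher and 4573 lower. The shares were, with limma, 68.5% and 27.6%, and with upper-quartile factors 38.0% in the glabridin step.

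Between melanosome and control, the 3 higher members became 5 with limma on log2(TPM + 1), 4 without scaling factors or in the fit of the 2 groups alone and 2 with glmTreat, which tests against a fold of 1.2. The 2 lower became 1 with RLE, upper-quartile or no scaling factors, glmTreat, DESeq2 or limma. Of all genes, 62.5% were called in the main fit, 58.1% with limma, 59.3% without scaling factors and 61.2% with RLE or upper-quartile factors. The share was 51.4% with DESeq2, 42.9% with glmTreat and 74.1% in the fit of the 2 groups alone. Between glabridin and melanosome, the 5 higher became 2 without scaling factors or with glmTreat and 3 with upper-quartile factors or limma. With RLE factors, no filter, the replicate block, DESeq2 or the 2 groups alone, BAX was the only higher member to lose its call. The 2 lower became 0 with the replicate block or glmTreat and 1 in the fit of the 2 groups alone. Of all genes, 43.9% were called in the main fit, 46.3% without scaling factors, 44.2% with upper-quartile factors and 47.7% with limma. The share was 24.5% with glmTreat, 39.7% with the replicate block and 36.3% in the fit of the 2 groups. With RLE factors, no filter and DESeq2 it was 43.1%, 34.4% and 36.5%. Between glabridin and control, the 2 lower became 0 with glmTreat and 1 in the fit of the 2 groups alone. Of the 5 higher, BAK1 lost its call with glmTreat (edgeR adjusted p = 0.106). Of all genes, 70.3% were called in the main fit, 56.0% with glmTreat and 66.9% in the fit of the 2 groups alone. With a library left out, the counts ranged from 3 to 3 higher and 2 to 3 lower, from 2 to 7 higher and 0 to 2 lower, and from 5 to 6 higher and 1 to 2 lower in the 3 comparisons. The share of all genes called then ran from 53.3% to 57.6%, from 34.4% to 52.1% and from 64.3% to 74.7%.

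Log2 changes that turned sign passed the threshold neither before nor after. In the melanosome step BAD was 0.0100 with RLE factors, 0.0132 with upper-quartile factors, 0.0102 with DESeq2, 0.1094 without factors, 0.121 with limma and 0.0241 in the fit of the 2 groups. MCL1 was 0.0367 without factors and 0.0440 with limma, and in the glabridin step -0.0035 with limma. With a library left out, the melanosome step ranged from -0.1159 to 0.0200 for BAD, from -0.0565 to 0.1574 for PMAIP1 and from -0.0372 to 0.0495 for BID. Between glabridin and control the range was -0.0376 to 0.1438 for BCL2L1 and -0.0050 to 0.0876 for MCL1. The cause was not tested.

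The labels state no pairing of same-numbered replicates. Their deviations from group means correlated at -0.2344 to 0.0503, beside -0.1977 to 0.273 for replicates of different number. With 3 libraries per group these values cannot tell whether a culture or batch was shared. With the replicate block, BCL2, BAX and BID lost their calls in the glabridin step (edgeR adjusted p = 0.0691, 0.0619 and 0.0608), and no other member's call changed. The alternatives for the lists beside the members were added after the data were seen. BCL2, at 16 to 24 counts per control library, is the member that depth limits most.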
